A study of Caenorhabditis elegans with 6 samples.

Results

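The 72 neuropeptide genes with *flp* or *nlp* names were described in 3 strains of *Caenorhabditis elegans*. They were every gene of the deposited tables whose name starts with flp- or nlp- followed by a number, 72 of 20661 genes, and no measured value was used to choose them. They fell into 29 *flp* genes, 11 genes of the epidermal immune group (*nlp-24* to *nlp-34*) and 32 other *nlp* genes. RNA was sequenced from *daf-16(−);daf-2(−)* worms with the alleles mgDf50 and e1370 (the double mutant), from *daf-2(−)* worms with e1370, and from WT (N2) worms, in 2 replicate libraries each. All worms were grown at 20 °C on *E. coli* OP50 and harvested as mixed-stage cultures, and both mutant strains carry the *daf-2(e1370)* allele. Worms with e1370 have a weakened insulin/IGF-1 receptor (DAF-2), and mgDf50 deletes part of *daf-16*, the gene of the FOXO factor that this receptor holds back. The study followed DAF-16 under lowered insulin signalling, and the comparisons here are *daf-2(−)* against WT, the double mutant against *daf-2(−)*, and the double mutant against WT.

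Neuropeptides are short peptides cut out of longer precursors, often amidated at their ends, packed into dense-core vesicles and released to act on receptors of other cells, most of them coupled to G proteins. The *flp* genes encode precursors of FMRFamide-like peptides, which are made mainly in neurons and tune locomotion, egg laying, feeding and sleep. The *nlp* genes hold the precursors that are neither FMRFamide-like nor insulin-like. Most of these are taken to act in neurons, *nlp-40* acts from the intestine, and *nlp-24* to *nlp-34* encode small glycine-rich peptides, several of which are antimicrobial peptides of the epidermis induced by fungal infection or wounding.

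Values are RPKM (reads per kilobase of exon, scaled by the mapped reads of the library), so levels can be set side by side between genes. *daf-16* had 6.44 and 4.6 RPKM in the double mutant, 25.2 and 22.4 RPKM in *daf-2(−)*, and 24.9 and 29.4 RPKM in WT. The spacing of low RPKM values put the depth at about 9150000 to 15000000 reads per library, lowest in *daf-2(−)* replicate 2. A mixed-stage culture of whole worms pools all cells and stages, so fewer cells of a type and less RNA per cell cannot be told apart. Markers of other cells differed between the strains. The summed RPKM of 9 germline markers was 971 and 702 in the double mutant, 221 and 174 in *daf-2(−)*, and 445 and 427 in WT. The labels do not say that the replicates of a strain came from separate cultures, so the p-values measure only the spread between these libraries.

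Most neuropeptide genes were well detected. Of the 72 genes, 70 were above 0 in all 6 libraries and 56 had a mean of at least 10 RPKM, while the median of all genes was 5.34 RPKM. The *flp* genes lay in a narrow band, with means of 2.82 RPKM (*flp-3*) to 75.5 RPKM (*flp-15*) and a median of 28 RPKM. The epidermal immune group had a median of 109 RPKM and held 6 of the 11 neuropeptide genes with a mean of at least 100 RPKM. The other *nlp* genes had a median of 22.3 RPKM.

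In every library the immune group stood above the other *nlp* genes. The mean log2(RPKM + 1) of its 10 detected genes exceeded that of the 32 other *nlp* genes by 1.74 and 2.12 in the double mutant, by 2.29 and 2.17 in *daf-2(−)*, and by 1.87 and 2.01 in WT. Both *daf-2(−)* libraries had a wider gap than the other 4, by 0.29 on the log2 scale on average against WT, and the double mutant overlapped with WT. This gap is a summary of 42 genes and was given no test.

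Apart from *nlp-40*, the genes with the highest levels in each group were not called in any comparison. *nlp-24*, the highest of the family, had 503 and 789 RPKM in the double mutant, 647 and 541 RPKM in *daf-2(−)*, and 794 and 567 RPKM in WT, and the 3 strains overlapped. Its exons overlap those of *glb-15* on the opposite strand over 6.37% of their length, and the library kit did not keep strand. *nlp-36*, second to *nlp-40* among the other *nlp* genes, had 254 and 304 RPKM in the double mutant, 402 and 380 RPKM in *daf-2(−)*, and 407 and 352 RPKM in WT. It was lower in the double mutant than in both other strains with no overlap, but by less than 2-fold (-0.49 on the log2 scale against *daf-2(−)*, SE 0.15, limma adjusted p = 0.0422). *nlp-17*, the next, had 95.5 and 163 RPKM in the double mutant, 204 and 155 RPKM in *daf-2(−)*, and 192 and 240 RPKM in WT, and *daf-2(−)* overlapped with each of the others. Of the *flp* genes, *flp-15* was highest, with 53.2 and 70.7 RPKM in the double mutant, 74.1 and 66.9 RPKM in *daf-2(−)*, and 102 and 85.5 RPKM in WT. The mutant strains overlapped for *flp-15* and both lay below WT, without a call. *flp-22* and *flp-24* followed with means of 62.4 and 62 RPKM and log2 fold changes between -0.40 and 0.18 in the 3 comparisons, none of them called.

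At the low end, *nlp-32* occurred only in the *daf-2(−)* table, at 0 RPKM in replicate 1 and 0.33 RPKM in replicate 2, which is about 1 read, and was taken as 0 in the other strains, so no change is read from it. Replicates of a strain differed over the 72 genes by a median of 0.39 (log2, without sign) in the double mutant, 0.27 in *daf-2(−)* and 0.30 in WT. Over all genes with a mean of at least 1 RPKM it was 0.24, 0.23 and 0.20 in the same order of strains. Of the 72 genes, 18 were higher in replicate 1 than in replicate 2 of the double mutant, and all 10 detected genes of the immune group were lower in replicate 1. In *daf-2(−)* 57 of the 72 genes were higher in replicate 1, as were 11091 of 14395 genes overall.

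The genes also differ in where they lie. Of the 72 names, 68 were found in the WBcel235 annotation, and *nlp-10* was found by its RefSeq symbol. Of the 69 genes placed, 21 are on the X chromosome (30.4%), against 14.1% of all matched genes, and 13 of these 21 are *flp* genes. Of the 11 genes of the immune group, 10 are on chromosome V and *nlp-32* is on chromosome III. The genes *nlp-34*, *nlp-31*, *nlp-30*, *nlp-29*, *nlp-28* and *nlp-27* follow one another on chromosome V and are called the *nlp-29* cluster here, and *nlp-25* and *nlp-26* flank *grsp-1* on the same chromosome. *nlp-39* and *nlp-40* are both on chromosome I.

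A gene was called when its unadjusted limma p was at most 0.05 and its fold change at least 2, on the log2(RPKM + 1) scale. In *daf-2(−)* against WT, 4 neuropeptide genes were called higher (*nlp-39*, *nlp-40*, *nlp-28* and *nlp-4*) and 2 lower (*flp-1* and *flp-17*), or 5.56% and 2.78% of the 72. Over all genes 4.84% were called higher and 7.78% lower in this comparison. In the double mutant against *daf-2(−)*, 4 were called higher (*flp-1*, *flp-17*, *flp-19* and *nlp-42*) and 6 lower (*nlp-39*, *nlp-40*, *nlp-28*, *nlp-34*, *nlp-25* and *nlp-2*), or 5.56% and 8.33%, where 15.8% of all genes were called higher and 5.65% lower. In the double mutant against WT limma called none higher and 1 lower (*nlp-12*), against 1.42% and 0.736% of all genes. Without the fold limit limma gave 0 of the 72 higher and 13 lower at an unadjusted p under 0.05, against 14.9% and 4.33% of all genes. The genes with a mean of at least 1 RPKM, as 70 of the 72 have, had shares called of 6.45% higher and 11% lower in the first comparison, 22.3% and 7.63% in the second, and 1.97% and 1.03% in the third. Set against these, the shares of the 72 genes called lower in the first comparison and higher in the second were smaller, and neither gap was tested.

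Adjusting the p-values over all genes changed these counts little. With limma's Benjamini-Hochberg adjusted p of at most 0.05 and the same fold limit, 3 neuropeptide genes were higher and 2 lower in *daf-2(−)* against WT (4.54% and 7.15% of all genes), 4 and 6 in the double mutant against *daf-2(−)* (15.5% and 5.46%), and 0 and 0 in the double mutant against WT (0.116% and 0.0387%). With no fold limit the adjusted counts were 4 and 8 in the first comparison (8.26% and 17.5% of all genes), 7 and 11 in the second (26.1% and 9.82%), and again 0 and 0 in the third (0.116% and 0.0387%). The first 2 comparisons share the *daf-2(−)* libraries, so a gene that is high or low in those libraries moves in both.

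**Figure D1:**
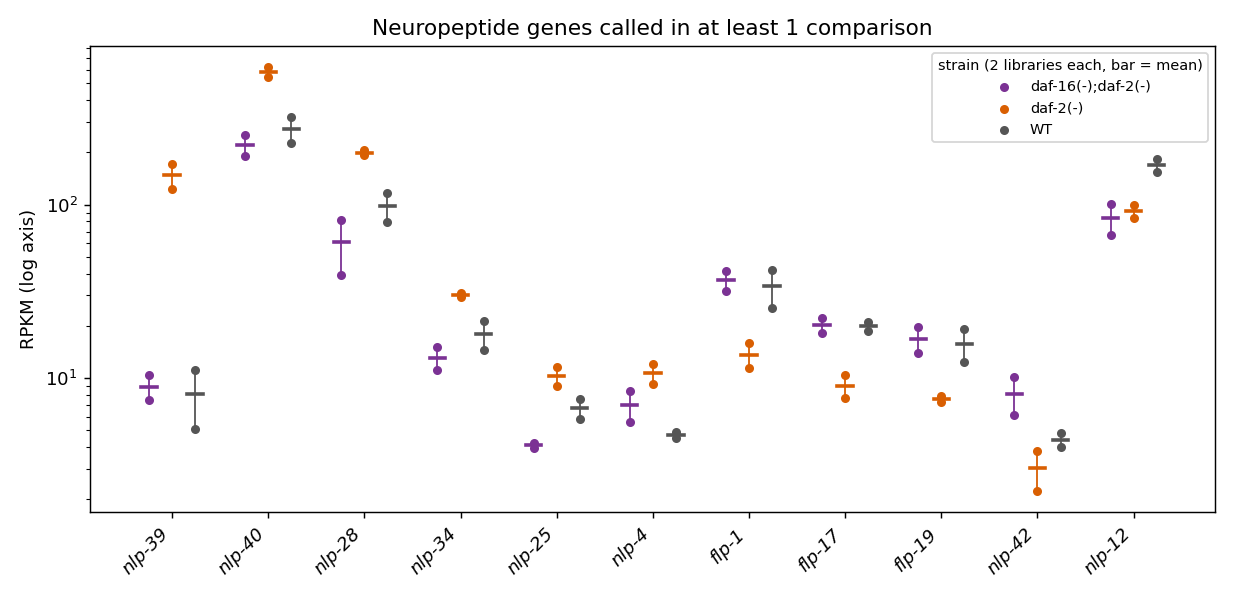
RPKM on a log axis of 11 neuropeptide genes called in at least 1 comparison, with 1 point per library, 2 libraries per strain, a line joining them and a bar at their mean. *nlp-39*, *nlp-40*, *nlp-28*, *nlp-34*, *nlp-25* and *nlp-4* lie highest in *daf-2(−)*, *flp-1*, *flp-17*, *flp-19* and *nlp-42* lie lowest there, and *nlp-12* lies highest in WT. *nlp-2*, listed at 0 in 1 library, is not drawn.

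The largest change of the family was that of *nlp-39*, a neuropeptide-like precursor gene. It had 7.43 and 10.45 RPKM in the double mutant, 124 and 172 RPKM in *daf-2(−)*, and 5.06 and 11.1 RPKM in WT. Both *daf-2(−)* libraries were far above the other 4, and the double mutant and WT overlapped. The mean was 148 ± 34.1 RPKM in *daf-2(−)* and 8.08 ± 4.27 RPKM in WT (SD, n = 2 each), a ratio of 18.3, and the log2 fold change was 4.10 (SE 0.35, limma adjusted p = 0.00174). The double mutant averaged 8.94 ± 2.14 RPKM (SD, n = 2), 16.5-fold below *daf-2(−)*, which is -3.90 on the log2 scale (SE 0.35, limma adjusted p = 0.00124). The values outside *daf-2(−)* rest on about 18 to 36 reads per library. Both calls held in all 14 alternative settings.

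*nlp-40* encodes the intestinal precursor whose peptide acts on neurons through the receptor AEX-2 to trigger the expulsion step of defecation. It had 191 and 252 RPKM in the double mutant, 548 and 621 RPKM in *daf-2(−)*, and 227 and 321 RPKM in WT. The *daf-2(−)* libraries stood above all others, and the double mutant and WT overlapped. The log2 fold change was 1.11 in *daf-2(−)* against WT (SE 0.21, limma adjusted p = 0.0151) and -1.41 in the double mutant against *daf-2(−)* (SE 0.21, limma adjusted p = 0.00339). The first of these went under 2-fold with quantile normalization (0.76) and without WT replicate 1 (0.86). Intestine markers moved with it in part: of 5 with values, *ges-1*, a gut esterase gene, was called in both comparisons (log2 fold changes of 1.84 and -2.29). Of all genes, 4.84% were called higher in the first and 5.65% lower in the second. The median of the 5 was 0.21 and -0.45, against -0.28 and 0.34 for all genes with a mean of at least 1 RPKM. The summed RPKM of the 5 markers was 1057 to 1444 in the double mutant, 1597 to 1861 in *daf-2(−)* and 1515 to 1547 in WT. None of them was at 0, and their part in the result was not tested. *aex-2* had 1.69 and 1.91 RPKM in the double mutant, 0.88 and 1.08 RPKM in *daf-2(−)*, and 2.78 and 1.45 RPKM in WT, and was not called.

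These 2 genes changed the makeup of the other *nlp* transcripts. *nlp-39* and *nlp-40* together made up 17.3% and 18.2% of the summed RPKM of the 32 other *nlp* genes in the double mutant, 33.6% and 41.1% in *daf-2(−)*, and 13.2% and 19.3% in WT. The *daf-2(−)* libraries stood apart from the rest in this share. Without the pair, the sum of the remaining 30 genes was 947 and 1174 RPKM in the double mutant, 1326 and 1137 RPKM in *daf-2(−)*, and 1521 and 1392 RPKM in WT, so the *daf-2(−)* libraries were then below WT and overlapped with the double mutant.

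A further *nlp* gene, *nlp-4*, had 5.6 and 8.44 RPKM in the double mutant, 12.1 and 9.25 RPKM in *daf-2(−)*, and 4.52 and 4.9 RPKM in WT. *daf-2(−)* was highest, the double mutant next and WT lowest, with no overlap. Only *daf-2(−)* against WT was called (log2 fold change 1.02, SE 0.26, limma adjusted p = 0.0311), and the change was under 2-fold without *daf-2(−)* replicate 1 (0.84) or without WT replicate 1 (0.98). *nlp-2* was listed at 0 and had 0.26 RPKM in the double mutant, 2.88 and 1.01 RPKM in *daf-2(−)*, and 0.5 and 1.29 RPKM in WT. This is 0 to 28 reads per library. Against *daf-2(−)* the double mutant was at -1.31 on the log2 scale (SE 0.35, limma adjusted p = 0.025), and the call was lost without either double mutant library (-1.15 and -1.48) and without *daf-2(−)* replicate 1 (-0.84).

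In the epidermal immune group 3 of 11 genes were called lower in the double mutant against *daf-2(−)* (*nlp-28*, *nlp-34* and *nlp-25*), where 5.65% of all genes were, and 1 was called higher in *daf-2(−)* against WT (*nlp-28*), where 4.84% of all genes were. None of the 11 was called in the double mutant against WT, where 1 had an unadjusted limma p under 0.05 (*nlp-25*, lower). The remaining 8 genes, among them *nlp-29*, were called in no comparison.

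**Figure D2:**
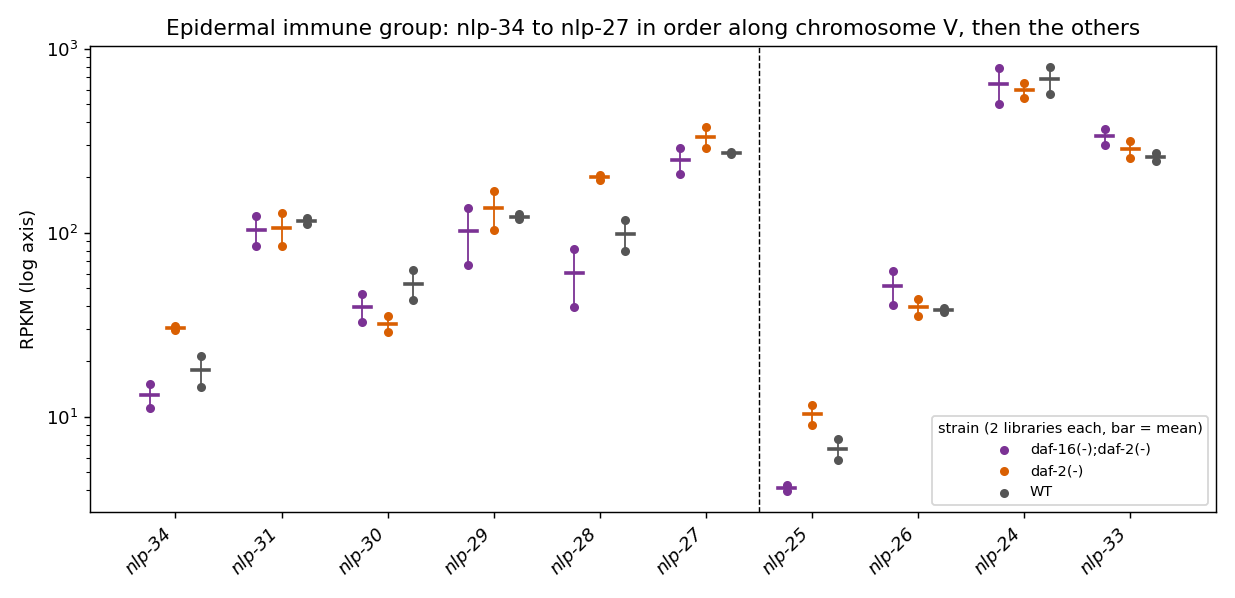
RPKM on a log axis of the 10 detected genes of the epidermal immune group, with 1 point per library, 2 libraries per strain, a line joining them and a bar at their mean. Left of the dashed line stand the 6 genes of the *nlp-29* cluster in their order along chromosome V, where *nlp-34*, *nlp-28* and, by less, *nlp-27* lie highest in *daf-2(−)*, and *nlp-31*, *nlp-30* and *nlp-29* overlap between at least 2 strains.

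*nlp-28* changed most in the group. It had 39.4 and 82 RPKM in the double mutant, 206 and 193 RPKM in *daf-2(−)*, and 79.4 and 117 RPKM in WT. The *daf-2(−)* libraries lay close together above all others, and the double mutant and WT overlapped. Its change was -1.79 on the log2 scale in the double mutant against *daf-2(−)* (SE 0.34, limma adjusted p = 0.00696), a call that held in all 14 settings. In *daf-2(−)* against WT it was 1.04 (SE 0.34, limma adjusted p = 0.0632), and this call did not survive the adjustment, quantile normalization (0.96), or the loss of *daf-2(−)* replicate 1 (1.0) or 2 (1.09) or of WT replicate 1 (0.77) or 2 (1.32). *nlp-28* accounted for 8.86% and 11.9% of the summed RPKM of the *nlp-29* cluster in the double mutant, 21.9% and 26.5% in *daf-2(−)*, and 12% and 16.8% in WT.

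*nlp-34*, at one end of the cluster and on the opposite strand, had 11.1 and 15 RPKM in the double mutant, 31.1 and 29.4 RPKM in *daf-2(−)*, and 14.6 and 21.4 RPKM in WT. *daf-2(−)* was again highest, and the double mutant reached into the range of WT. Against *daf-2(−)* the double mutant was at -1.16 on the log2 scale (SE 0.23, limma adjusted p = 0.00871), and it was under 2-fold without double mutant replicate 1 (-0.96). In *daf-2(−)* against WT it was 0.74, which was not called, and exceeded 2-fold after median-ratio scaling (1.04) or quantile normalization (1.02). *nlp-25*, away from the cluster, had 3.94 and 4.25 RPKM in the double mutant, 11.5 and 9.05 RPKM in *daf-2(−)*, and 5.81 and 7.56 RPKM in WT. The strains did not overlap, in the order double mutant, WT, *daf-2(−)*. The change against *daf-2(−)* was -1.14 (SE 0.24, limma adjusted p = 0.00977), and without *daf-2(−)* replicate 1 it was -0.98.

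Of the other genes of the group none was called. *nlp-29*, the peptide gene best known for its induction by the fungus *Drechmeria coniospora* and by wounding, had 66.6 and 137 RPKM in the double mutant, 168 and 103.9 RPKM in *daf-2(−)*, and 118 and 127 RPKM in WT. The WT libraries lay inside the range of both mutant strains. *nlp-31*, whose peptide has antimicrobial activity, had 85 and 123 RPKM in the double mutant, 128 and 84.3 RPKM in *daf-2(−)*, and 120 and 112 RPKM in WT, with the same nesting. *nlp-30* had 32.9 and 46.5 RPKM in the double mutant, 35.4 and 28.7 RPKM in *daf-2(−)*, and 62.4 and 43.3 RPKM in WT. It was lower in both *daf-2(−)* libraries than in WT without a call (log2 fold change -0.69, limma adjusted p = 0.0802). *nlp-27*, at the other end of the cluster, had 210 and 288 RPKM in the double mutant, 373 and 289 RPKM in *daf-2(−)*, and 266 and 276 RPKM in WT. It was highest in *daf-2(−)*, as *nlp-28* was, with replicate 2 just above the other strains and changes of 0.28 and -0.42 on the log2 scale that were not called.

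Outside the cluster, *nlp-26* had 40.5 and 61.9 RPKM in the double mutant, 43.6 and 35.4 RPKM in *daf-2(−)*, and 38.9 and 36.9 RPKM in WT. *nlp-33* had 299 and 367 RPKM in the double mutant, 316 and 254 RPKM in *daf-2(−)*, and 244 and 271 RPKM in WT, and both were highest on average in the double mutant without a call. The genes *nlp-27* to *nlp-34* resemble one another in sequence, and the RPKM were computed with default parameters that are not spelled out in the sources used here, so the split of reads among them is uncertain. Epidermal markers differed too. Of 11, 1 was called higher (*col-19*, an adult cuticle collagen, log2 fold change 2.20) and 5 lower in *daf-2(−)* against WT. Of all genes, 4.84% and 7.78% were. In the double mutant against *daf-2(−)* 4 were called higher, where 15.8% of all genes were. The summed RPKM of the 10 without *col-19* was 399 to 477 in the double mutant, 217 to 260 in *daf-2(−)* and 385 to 552 in WT. None of the 11 was at 0, and their part in the changes of the immune group was not tested.

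Signalling genes of the epidermal immune response, not all of them upstream of *nlp-29*, were examined as a list of 18, of which 17 had values. None was called in any comparison. Of all genes, 4.84% were called higher and 7.78% lower in *daf-2(−)* against WT. The shares were 15.8% and 5.65% in the double mutant against *daf-2(−)*, and 1.42% and 0.736% in the double mutant against WT. At limma's adjusted p with no fold limit 2 of the 17 were higher in *daf-2(−)* against WT, where 8.26% of all genes were. By the same measure 3 were lower in the double mutant against *daf-2(−)*, where 9.82% of all genes were. *dcar-1*, a receptor upstream of *nlp-29*, had 36 and 34.5 RPKM in the double mutant, 59.8 and 56.2 RPKM in *daf-2(−)*, and 39 and 36.7 RPKM in WT. *gpa-12*, a G protein subunit of the same route, had 12.5 and 18.9 RPKM in the double mutant, 35.8 and 27.5 RPKM in *daf-2(−)*, and 15.9 and 15.5 RPKM in WT, with log2 fold changes of 0.96 and -0.98. Both genes were highest in *daf-2(−)* with no overlap. *sta-2*, the STAT-like factor of this route, passed only in the double mutant against *daf-2(−)* (log2 fold change -0.72, limma adjusted p = 0.0308).

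Among the *flp* genes the calls ran the other way, with *flp-1* and *flp-17* called lower in *daf-2(−)* against WT and *flp-1*, *flp-17* and *flp-19* called higher in the double mutant against *daf-2(−)*. No *flp* gene was called in the double mutant against WT, where limma gave 6 of 29 an unadjusted p under 0.05, all lower, against 4.33% of all genes lower and 14.9% higher. *flp-1*, whose peptides shape locomotion and egg laying, had 31.9 and 41.4 RPKM in the double mutant, 15.8 and 11.4 RPKM in *daf-2(−)*, and 42.2 and 25.4 RPKM in WT. *daf-2(−)* lay below all other libraries, and the double mutant lay within the range of WT. It changed by -1.22 (log2) in *daf-2(−)* against WT (SE 0.28, limma adjusted p = 0.0238) and 1.37 in the double mutant against *daf-2(−)* (SE 0.28, limma adjusted p = 0.00977).

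*flp-17* encodes peptides of the BAG sensory neurons that slow egg laying through the receptor EGL-6. It had 18.2 and 22.3 RPKM in the double mutant, 10.5 and 7.67 RPKM in *daf-2(−)*, and 21.1 and 18.6 RPKM in WT. Its change on the log2 scale was -1.07 in *daf-2(−)* against WT (SE 0.21, limma adjusted p = 0.0161) and 1.09 in the double mutant against *daf-2(−)* (SE 0.21, limma adjusted p = 0.00781). The *daf-2(−)* libraries were the lowest, and WT lay within the range of the double mutant. *flp-10*, which encodes the other peptides known to act on EGL-6, had 25.9 and 26.9 RPKM in the double mutant, 42.4 and 46.4 RPKM in *daf-2(−)*, and 33.2 and 25.4 RPKM in WT. It was highest in *daf-2(−)*, and under 2-fold it passed limma's adjusted p in both comparisons (0.59, adjusted p = 0.0453, and -0.73, adjusted p = 0.0162). The 2 genes thus had opposite signs in both comparisons, while *egl-6* had 3.4 and 2.39 RPKM in the double mutant, 3.36 and 2.5 RPKM in *daf-2(−)*, and 4.36 and 5.17 RPKM in WT, and was not called.

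*flp-19* had 19.8 and 13.9 RPKM in the double mutant, 7.87 and 7.31 RPKM in *daf-2(−)*, and 19.2 and 12.3 RPKM in WT. *daf-2(−)* was lowest with no overlap, and the change was 1.04 in the double mutant against *daf-2(−)* (SE 0.27, limma adjusted p = 0.0228) and, uncalled, -0.93 in *daf-2(−)* against WT. *nlp-42* was called with these, at 10.1 and 6.15 RPKM in the double mutant, 3.81 and 2.23 RPKM in *daf-2(−)*, and 4.81 and 3.98 RPKM in WT. It was highest in the double mutant with no overlap (log2 fold change 1.18 against *daf-2(−)*, SE 0.32, limma adjusted p = 0.0271). The calls of *flp-1*, *flp-17*, *flp-19* and *nlp-42* all depended on the scaling. After median-ratio scaling the changes in the double mutant against *daf-2(−)* were 0.96 for *flp-1*, 0.69 for *flp-17*, 0.65 for *flp-19* and 0.84 for *nlp-42*, and after quantile normalization 0.86, 0.65, 0.64 and 0.90, so none reached 2-fold and all kept their sign. In *daf-2(−)* against WT *flp-1* and *flp-17* were then at -0.94 and -0.79 after median-ratio scaling, and at -0.93 and -0.83 after quantile normalization.

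Single libraries bore on the same calls. Without *daf-2(−)* replicate 2, the shallowest library, none of the 4 was called in the double mutant against *daf-2(−)* (1.15, 0.88, 0.99 and 0.89 for *flp-1*, *flp-17*, *flp-19* and *nlp-42*), and neither *flp-1* (-1.0) nor *flp-17* (-0.86) was called in *daf-2(−)* against WT. Without WT replicate 1, *flp-1* and *flp-17* were at -0.87 and -0.98 in *daf-2(−)* against WT. Set against *daf-2(−)*, *flp-17* was at 0.94 in the double mutant without double mutant replicate 2, *flp-19* at 0.80 without double mutant replicate 1 and at 1.08 without *daf-2(−)* replicate 1, and *nlp-42* at 0.86 without double mutant replicate 1, and each lost its call there.

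Most markers of neurons had values in the direction of *flp-1*, *flp-17* and *flp-19*. Of 12 pan-neuronal genes, 1 was called lower in *daf-2(−)* against WT (*snt-1*, synaptotagmin, log2 fold change -1.02), where 7.78% of all genes were. None was called in the double mutant against *daf-2(−)*, where 15.8% of all genes were called higher. Their medians were -0.63 and 0.57 (-0.35 and 0.16 after median-ratio scaling). Those of all genes with a mean of at least 1 RPKM were -0.28 and 0.34, and those of the *flp* genes -0.37 and -0.04. At limma's adjusted p with no fold limit, 3 of the 12 were lower in the first comparison and 2 higher in the second. Of all genes, 17.5% and 26.1% were. The summed RPKM of the 12 markers was 357 to 407 in the double mutant, 322 to 375 in *daf-2(−)* and 407 to 446 in WT. None of them was at 0, and their part in the lower *flp* values was not tested.

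Under 2-fold, a second set of *flp* genes went with *flp-10*. *flp-28* had 25.8 and 26 RPKM in the double mutant, 49.5 and 53.4 RPKM in *daf-2(−)*, and 35.2 and 39 RPKM in WT, and the 3 strains did not overlap. Its change against *daf-2(−)* in the double mutant was -0.96 on the log2 scale (SE 0.14, limma adjusted p = 0.00297). *flp-20*, made in touch receptor neurons, had 20.6 and 28.6 RPKM in the double mutant, 45.5 and 41.5 RPKM in *daf-2(−)*, and 39.1 and 37 RPKM in WT. It was lowest in the double mutant, by -0.81 against *daf-2(−)* (SE 0.19, limma adjusted p = 0.0142). *flp-6* had 39 and 50.8 RPKM in the double mutant, 84.4 and 69.5 RPKM in *daf-2(−)*, and 51.1 and 65.2 RPKM in WT, and its change against *daf-2(−)* was -0.77 (SE 0.20, limma adjusted p = 0.0231). *flp-10*, *flp-28*, *flp-20* and *flp-6* all lay below -1 in this comparison after either scaling, between -1.08 and -1.39. *flp-5*, *flp-26* and *flp-32* were lower in *daf-2(−)* than in WT by -0.84, -0.67 and -0.89. All 3 were past limma's adjusted p and under 2-fold on the log2(RPKM + 1) scale.

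*nlp-12* encodes cholecystokinin-like peptides of the DVA neuron that act on locomotion through the receptor CKR-2. It had 67 and 100 RPKM in the double mutant, 100 and 84.3 RPKM in *daf-2(−)*, and 184 and 155 RPKM in WT. Both mutant strains lay below WT and overlapped with each other. The change was -1.03 on the log2 scale in the double mutant against WT (SE 0.22, limma adjusted p = 0.163) and -0.87 in *daf-2(−)* against WT (SE 0.22, limma adjusted p = 0.0292), the first called and the second under 2-fold. The call was lost without double mutant replicate 1 (-0.74) and without WT replicate 1 (-0.91). *ckr-2* had 2 and 1.42 RPKM in the double mutant, 1.7 and 1.98 RPKM in *daf-2(−)*, and 1.28 and 1.99 RPKM in WT.

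Other precursors with described roles, in sleep and egg laying among them, were not called in any comparison. *flp-11*, the sleep peptide gene of the RIS neuron, had 21.8 and 15.6 RPKM in the double mutant, 20.7 and 20.1 RPKM in *daf-2(−)*, and 22.4 and 18.2 RPKM in WT. The ALA neuron, which drives sleep after stress, uses *flp-13*, *flp-24* and *nlp-8*. *flp-13* varied between the libraries of 1 strain, at 10.6 and 3.55 RPKM in the double mutant, 3.81 and 2.58 RPKM in *daf-2(−)*, and 6.22 and 3.06 RPKM in WT, and *nlp-8* had 20.6 to 26.5 RPKM in all 6 libraries. *flp-18* and *flp-21* encode ligands of the receptor NPR-1, and had log2 fold changes of -0.49 and -0.37 in *daf-2(−)* against WT and of 0.33 and 0.14 in the double mutant against *daf-2(−)*, none called. *nlp-3*, which promotes egg laying, had 19.1 and 10.9 RPKM in the double mutant, 11.2 and 9.9 RPKM in *daf-2(−)*, and 16.2 and 17.1 RPKM in WT. *nlp-7*, which slows it, had 18.3 and 35.6 RPKM in the double mutant, 34.6 and 26.7 RPKM in *daf-2(−)*, and 33.5 and 36 RPKM in WT. *nlp-14* had 16.2 and 12.8 RPKM in the double mutant, 16.8 and 9.24 RPKM in *daf-2(−)*, and 24 and 18.3 RPKM in WT. For *nlp-3* both *daf-2(−)* libraries lay below WT, and for *nlp-7* the 3 strains overlapped.

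**Figure D3:**
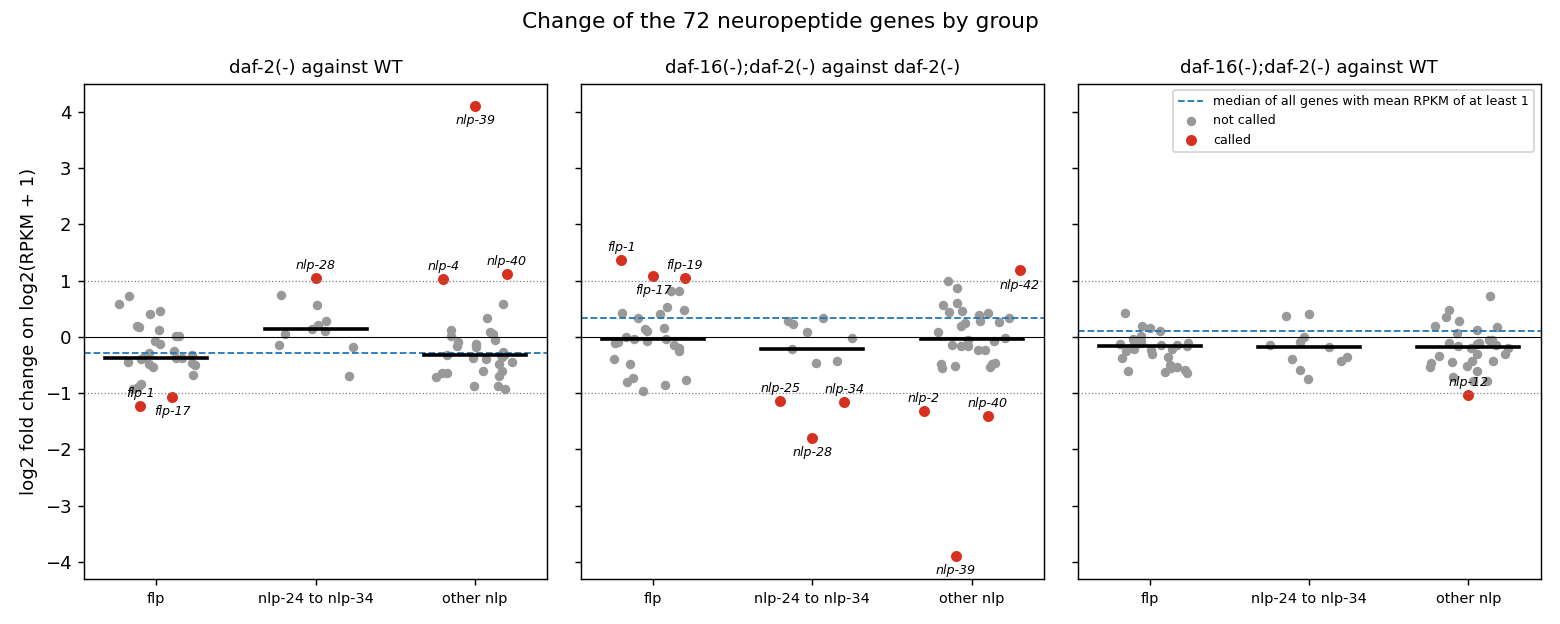
The log2 fold change on log2(RPKM + 1) of the 72 genes in 3 panels, *daf-2(−)* against WT, the double mutant against *daf-2(−)*, and the double mutant against WT. Each point is a gene (red where called), thick bars are group medians, dotted lines mark 2-fold and the dashed line is the median over all genes whose mean was at least 1 RPKM. *nlp-39* stands far from all others, and the *flp* medians are -0.37, -0.04 and -0.16.

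As groups, the *flp* genes and the other *nlp* genes had like medians, and the immune group had a higher one in *daf-2(−)* against WT, a difference given no test. There the median log2 fold change was -0.37 for flp, 0.14 for the immune group and -0.32 for the other *nlp* genes, and 9 of 29, 7 of the 10 detected and 9 of 32 were positive. Without *nlp-32* the median of the immune group was 0.13, and it was -0.22 in the double mutant against *daf-2(−)* and -0.26 in the double mutant against WT. All genes with a mean of at least 1 RPKM had a median of -0.28, so the *flp* and other *nlp* medians were close to that of all genes. For the double mutant against *daf-2(−)* the medians were -0.04, -0.21 and -0.04, below the 0.34 of all genes, and in the double mutant against WT they were -0.16, -0.18 and -0.18, against 0.10. In that last comparison 56 of the 72 genes were negative. The libraries of the 2 strains did not overlap for 13 genes higher and 31 lower in *daf-2(−)* against WT, where 22% of all genes did so higher and 42.4% lower. For the double mutant against *daf-2(−)* 17 were higher and 20 lower without overlap, against 43.3% and 19.9% of all genes, and in the double mutant against WT 4 and 23, against 32.2% and 15.9%.

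The scaling of the libraries moved these medians. Median-ratio scaling brought the median over all genes whose mean was at least 1 RPKM to -0.02 in *daf-2(−)* against WT, -0.02 in the double mutant against *daf-2(−)* and -0.01 in the double mutant against WT. The medians of the 3 groups were then -0.09, 0.41 and -0.04 in the first comparison, -0.45, -0.45 and -0.38 in the second, and -0.29, -0.30 and -0.28 in the third. Over all 72 genes the median in *daf-2(−)* against WT was -0.26 as deposited, 0.03 after median-ratio scaling and -0.06 after quantile normalization, so that its sign was not fixed. It was negative for the double mutant under all 3 scalings, at -0.04, -0.44 and -0.32 against *daf-2(−)* and at -0.17, -0.29 and -0.34 against WT. Of the 72 genes, 10 after median-ratio scaling and 11 after quantile normalization were called lower in the double mutant against *daf-2(−)*, where 9.98% and 8.33% of all genes were. None was called higher under either scaling, where limma called 7.61% and 8.17% of all genes higher. With no fold limit limma gave 4 and 5 of the 72 higher, and 33 and 27 lower, at an unadjusted p under 0.05. The shares of all genes given above do not apply to that threshold.

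**Figure D4:**
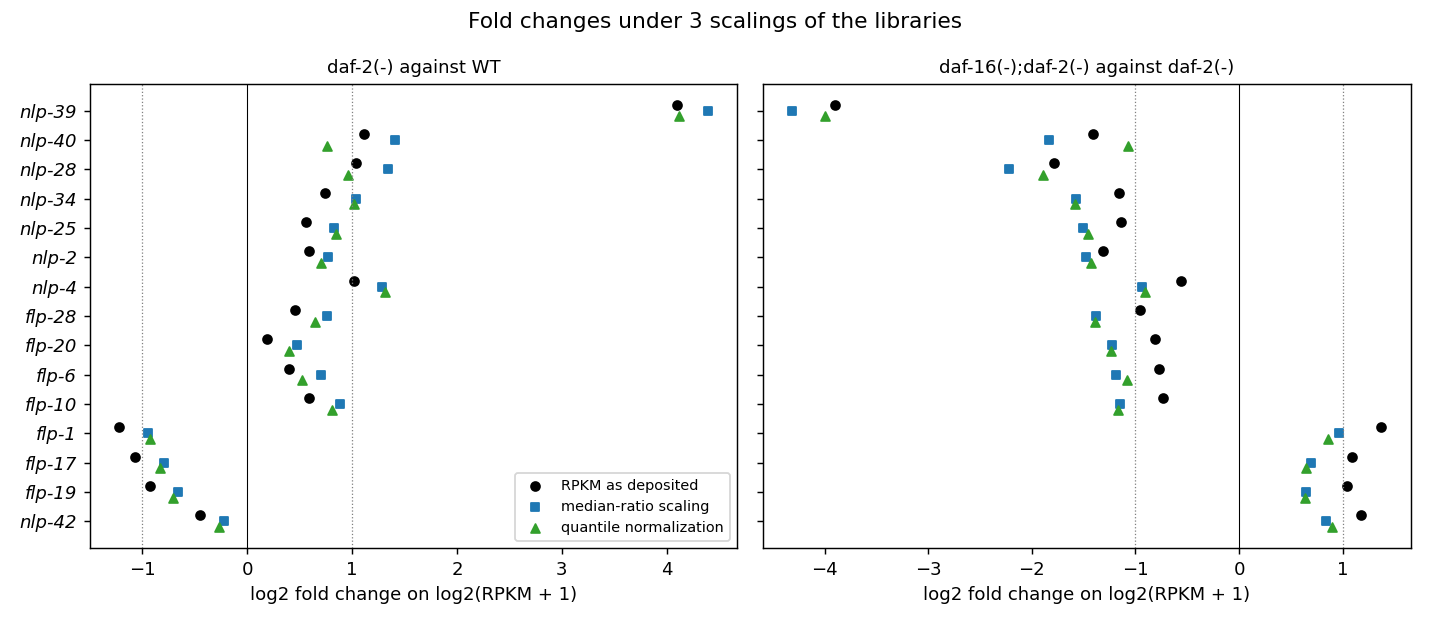
The log2 fold change on log2(RPKM + 1) of 15 neuropeptide genes with the RPKM as deposited (circles), after median-ratio scaling (squares) and after quantile normalization (triangles), for *daf-2(−)* against WT and the double mutant against *daf-2(−)*. Dotted lines mark 2-fold. *flp-1*, *flp-17*, *flp-19* and *nlp-42* fall inside the 2-fold lines after scaling, *flp-28*, *flp-20*, *flp-6* and *flp-10* fall outside them in the double mutant against *daf-2(−)*, and *nlp-39* stays far outside.

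The genes that make, release and read neuropeptides are set here beside 4.84% of all genes called higher and 7.78% lower in *daf-2(−)* against WT, and 15.8% and 5.65% in the double mutant against *daf-2(−)*. At limma's adjusted p with no fold limit these shares were 8.26% and 17.5%, and 26.1% and 9.82%. Of 14 processing genes none was called in *daf-2(−)* against WT (1 higher and 2 lower at limma's adjusted p with no fold limit), and only *nep-1*, a neprilysin-type peptidase gene, was called higher in the double mutant against *daf-2(−)* (log2 fold change 1.22), with 3 higher and 2 lower at the adjusted p with no fold limit. *egl-3*, the proprotein convertase that cuts most precursors, had 56.4 and 44.3 RPKM in the double mutant, 44.9 and 33.8 RPKM in *daf-2(−)*, and 66.2 and 55.1 RPKM in WT. *egl-21*, the carboxypeptidase that trims them, had 91.9 and 78.7 RPKM in the double mutant, 83.3 and 74.3 RPKM in *daf-2(−)*, and 105 and 92.1 RPKM in WT. Both lay lower in *daf-2(−)* than in WT with no overlap and without a call. Of 15 genes of dense-core vesicle release 12 had values, and limma called none in the 3 comparisons (0 higher and 2 lower at the adjusted p with no fold limit in *daf-2(−)* against WT, and 2 higher and 1 lower in the double mutant against *daf-2(−)*).

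Of 91 neuropeptide receptor genes listed, 89 had values. In *daf-2(−)* against WT 2 were called higher (*dmsr-16* and *nmur-4*) and 1 lower (*gnrr-8*), and in the double mutant against *daf-2(−)* 2 higher (*sprr-2* and *pdfr-1*) and 1 lower (*dmsr-16*). The median was -0.24 and 0.10. *dmsr-16* had 0.7 and 1.03 RPKM in the double mutant, 8.34 and 7.04 RPKM in *daf-2(−)*, and 1.06 and 2.47 RPKM in WT, with log2 fold changes of 1.70 and -2.22. It was the receptor gene with the largest change in both comparisons and, like *nlp-39*, was highest in *daf-2(−)* with no overlap. *pdfr-1* encodes the receptor of the PDF neuropeptides. *pdf-1*, a neuropeptide gene outside the *flp* and *nlp* names, had 45.2 and 51 RPKM in the double mutant, 28 and 21.8 RPKM in *daf-2(−)*, and 62.9 and 39.9 RPKM in WT, lowest in *daf-2(−)* as *flp-1* was. Its log2 fold changes were -0.99 and 0.93, under 2-fold on the log2(RPKM + 1) scale and past limma's adjusted p in both.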

How the data were processed

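RNA was sequenced from 2 replicates each of *daf-16(−);daf-2(−)*, *daf-2(−)* and WT. Per the labels, reads were called with CASAVA 1.8.2 from libraries of a kit that does not keep strand. With CLC Genomics Workbench the authors mapped reads to WS230 and deposited RPKM per gene, 1 table per strain. RPKM keep no counts, so no count model was fitted. The tables were joined by name, genes absent from a table were taken as 0 (2499 genes were absent from at least 1), and 6 names on more than 1 line were left out. limma 3.58.1 in R 4.3.3 was fitted to log2(RPKM + 1) over all 20661 genes and 6 libraries, with a trend (3.86 prior degrees of freedom). This replaces the beta-binomial test of the study, whose thresholds were kept. The method was tested on data simulated with limma's own spread. These held no shifts of whole libraries, so that test does not bear on the scaling.

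Depth was estimated from the spacing of low RPKM values with WBcel235 exon lengths, another build, so it and the read numbers are approximate. Python 3.11.15 was used for the rest. The named genes are *nlp-24* to *nlp-34*, the 3 highest *flp* and other *nlp* genes, up to 5 called genes per comparison and direction, and members with well-described roles, of which *nlp-22* and *nlp-44* were not analysed here. Other members were named after their values were seen: *flp-2*, *flp-3*, *flp-5*, *flp-6*, *flp-10*, *flp-20*, *flp-26*, *flp-28*, *flp-32*, *nlp-10*, *nlp-23*, *nlp-35* and *nlp-46*. The 72 genes were taken by name, while the members singled out here and the lists were chosen with earlier results of these data known. Alternatives were other pseudocounts (0.1 and 0.5 RPKM), a filter at a mean of 1 RPKM, 2 scalings, adjusted p-values, no trend, the replicate number as a block, and each library left out. Planned descriptions of promoters and proteins were not made, as no sequences were used here.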

Additional observations from a re-analysis of the deposited data

How the results depend on the processing

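The 17 calls of single genes kept their direction in all settings run (0 of 237 reversed), and the number kept was 17 with a pseudocount of 0.1 or 0.5 RPKM, without the trend and with the replicate block, 16 of the 16 that could be fitted with a filter at a mean of 1 RPKM, 15 at the adjusted p, 11 after median-ratio scaling and 9 after quantile normalization. With 1 library left out, between 10 and 16 were kept. In *daf-2(−)* against WT, the 2 genes called lower became 5 with a pseudocount of 0.1 RPKM and 0 with median-ratio scaling or quantile normalization. Under these 2 scalings, with no fold limit, limma gave 7 and 9 lower, and 18 and 12 higher, at an unadjusted p under 0.05. In the double mutant against *daf-2(−)*, the 4 called higher became 0 under both scalings, and the 6 called lower became 10 and 11. In the double mutant against WT, the 1 called lower became 2 with a pseudocount of 0.1 or 0.5 RPKM and 0 at limma's adjusted p. With no fold limit limma gave 13 lower and 0 higher there at an unadjusted p under 0.05, against 4.33% and 14.9% of all genes. Leaving out each library in turn gave 1 to 4 higher and 0 to 4 lower in *daf-2(−)* against WT, 0 to 6 higher and 5 to 6 lower in the double mutant against *daf-2(−)*, and 0 to 1 higher and 0 to 4 lower in the double mutant against WT. Median-ratio scaling shifts all genes of a library at once, by factors of 1.10 and 1.18 in the double mutant, 0.916 and 0.785 in *daf-2(−)*, and 1.01 and 1.08 in WT, and the cause of those factors was not tested. Quantile normalization moves genes by level, and in *daf-2(−)* against WT it took *nlp-24* to -0.61 and *nlp-4* to 1.31, against -0.18 and 1.02 as deposited.

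The labels number the replicates and do not say whether same-numbered libraries were prepared together. Deviations of same-numbered libraries correlated at -0.163 between the double mutant and *daf-2(−)*, 0.158 between the double mutant and WT, and 0.109 between *daf-2(−)* and WT. With 2 libraries per strain, shifts of whole libraries enter these values, so they cannot decide it, and the main fit took the libraries as unpaired. With the replicate number as a block, the counts of genes higher and lower were 4 and 2, 4 and 6, and 0 and 1 in the 3 comparisons. Depth limits *nlp-32* (0 to 1 reads), *nlp-2* (0 to 28) and *nlp-23* (1 to 22). With 2 libraries per strain, the calls rest on the spread that limma shares across genes. Genes on the opposite strand overlap 20% of the exons of *nlp-46* and 15.7% of those of *nlp-35*, and their reads cannot be told apart.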

Other observations

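The caenacins (*cnc* genes), a further family of antimicrobial peptides made in the epidermis, included genes that were highest in *daf-2(−)*, as *nlp-28* was. Of 10 *cnc* genes, 3 were called higher and 1 lower in *daf-2(−)* against WT, where 4.84% and 7.78% of all genes were. In the double mutant against *daf-2(−)* 4 were called lower, where 5.65% of all genes were. *cnc-1*, among those called higher, had 2.62 and 0.55 RPKM in *daf-2(−)* and was at 0 in the other strains. In the double mutant against WT 1 of the 10 was called higher (*cnc-7*, log2 fold change 1.04, limma adjusted p = 0.242), where 1.42% of all genes were. *cnc-7* had 15.7 and 26.9 RPKM in the double mutant and 5.95 and 14.9 RPKM in WT. *cnc-4* had 11.8 and 5.58 RPKM in the double mutant, 34.2 and 27.9 RPKM in *daf-2(−)*, and 11.4 and 18.4 RPKM in WT, with log2 fold changes of 1.04 and -1.80. *cnc-11* did not occur in the double mutant table and had 6.36 and 4.66 RPKM in *daf-2(−)*, and 0.41 and 0.47 RPKM in WT. *cnc-2* had 11.9 and 15.4 RPKM in the double mutant, 8.41 and 7.12 RPKM in *daf-2(−)*, and 15.5 and 29.1 RPKM in WT, and was lowest in *daf-2(−)*.

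Some adjacent neuropeptide genes had values of unlike sign or size, chosen here after their values were seen. *flp-28*, *flp-3* and *flp-2* lie next to one another on the X chromosome, and in the double mutant against *daf-2(−)* their log2 fold changes were -0.96, 0.40 and 0.10. *nlp-25* and *nlp-26*, on either side of *grsp-1*, had -1.14 and 0.34 in the same comparison, of which only *nlp-25* was called. In the *nlp-29* cluster *nlp-28* and its neighbour *nlp-29* had -1.79 and -0.46, and the libraries of *nlp-29* overlapped between these strains, while *nlp-27* on the other side, at -0.42, was highest in *daf-2(−)* without overlap as *nlp-28* was. No difference between neighbours was tested.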
